A study of Homo sapiens with 60 samples.

Results

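The genes described here are 10 genes of the cytosolic heat shock response: HSF1, the transcription factor at its head, and 9 chaperones and co-chaperones that it drives. They are the HSP70 proteins HSPA1A, HSPA1B, HSPA6 and HSPA8, the J-domain protein DNAJB1, the nucleotide exchange factors HSPH1 and BAG3, the HSP90 protein HSP90AA1 and the small heat shock protein HSPB1. They were chosen by symbol, and all 10 were found among the 60675 gene IDs of the count table. All 10 were among the 16982 genes tested, but HSPA6 passed the filter on low counts only through the high dose of Aucklandiae Radix, so a test of HSPA6 there is decided by the filter. HSPA6 is therefore described by its reads, with no p-value, and the counts of called genes below are over the other 9 genes.

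In unstressed cells HSF1 is held inactive, in part by binding to HSP70 and HSP90 chaperones. When unfolded proteins draw those chaperones away, HSF1 forms trimers, binds heat shock elements in promoters and raises transcription of chaperone genes. HSP70 proteins bind exposed hydrophobic stretches of client proteins under control of ATP, J-domain proteins deliver clients and start ATP hydrolysis, and nucleotide exchange factors release them again. HSP90 acts later, on nearly folded clients such as kinases and steroid receptors, and small heat shock proteins hold unfolded proteins without ATP.

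RNA was sequenced from HepG2, an established line of human hepatocellular carcinoma cells, 24 h after treatment with 70% ethanol extracts dissolved in DMSO. Aucklandiae Radix was given at 11.2, 56 and 280 ug/mL and Polygalae Radix at 10, 50 and 250 ug/mL, with 2 libraries per dose. Menthae Herba, Saposhnikoviae Radix, Guibi-tang and Saengmaek-san had 3 libraries at each of 20, 100 and 500 ug/mL, Soyo-san had 2 and Okbyeongpung-san had 1, and DMSO alone (vehicle) had 3. Per the series' design text, an extract whose 20% inhibitory concentration lay below 500 ug/mL was given at that concentration and at dilutions in steps of 5, so the top doses of Aucklandiae Radix and Polygalae Radix inhibited the cells by design. The sample codes begin with 11 for Aucklandiae Radix and Polygalae Radix, 12 for Menthae Herba and Saposhnikoviae Radix, 13 for Guibi-tang and Saengmaek-san, 14 for Soyo-san and Okbyeongpung-san and D1 for vehicle. Extracts that share this number are called a set here, and the labels do not say what it stands for. The DMSO concentration is 0.1% in the labels and 2% in the design text.

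The 60 libraries held 17.5 to 38.9 M counts, with a median of 23.7 M. All 10 hepatocyte markers (such as ALB, AFP and APOB) were present, at a summed 17800 to 56300 counts per 1 M counts (CPM). The lowest sums were at the inhibitory doses, at 22600 and 23100 CPM with Aucklandiae Radix at 280 ug/mL and 17800 and 21600 CPM with Polygalae Radix at 250 ug/mL, against a median of 51200 CPM over all libraries. Mitochondrially encoded genes took 8.17% and 8.02% of counts with Aucklandiae Radix at 280 ug/mL and 17.5% and 17.7% with Polygalae Radix at 250 ug/mL, against 19.1%, 15.8% and 15.9% in vehicle. The part of these shifts in the results below was not tested. CPM is a share of each library's RNA, so fewer cells and less RNA per cell cannot be told apart from it. The labels do not say that replicates were separate cultures, so all p-values measure the spread between libraries, which may be technical.

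Heat shock elements are made of units of GAA in alternating directions, and the promoters of the genes with the clearest matches are shown because they carry the site by which HSF1 is known to act. HSF1 was left out of the search for matches, which covered 12 RefSeq promoters of the other 9 genes. Each had 300 bases, with 250 before the annotated start. The stretch shown for each is the 150 bases that end just before the start, read 5′ to 3′ on the gene's strand (build GRCh38.p14), with capitals for every match to GAANNTTC or TTCNNGAA:
HSPA1A, chr6:31815393-31815542, plus strand: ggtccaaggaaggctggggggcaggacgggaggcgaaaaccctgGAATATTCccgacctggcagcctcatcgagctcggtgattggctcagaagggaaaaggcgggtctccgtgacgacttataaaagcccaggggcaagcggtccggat
HSPA1B, chr6:31827588-31827737, plus strand: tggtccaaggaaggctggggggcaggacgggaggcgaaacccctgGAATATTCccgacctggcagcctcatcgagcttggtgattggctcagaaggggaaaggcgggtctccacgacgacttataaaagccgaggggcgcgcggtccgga
HSPA6, chr1:161524390-161524539, plus strand: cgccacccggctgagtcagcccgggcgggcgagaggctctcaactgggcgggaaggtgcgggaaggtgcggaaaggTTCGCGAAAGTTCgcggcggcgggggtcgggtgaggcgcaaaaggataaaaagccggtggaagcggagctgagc
HSPA8, chr11:123062137-123062286, minus strand: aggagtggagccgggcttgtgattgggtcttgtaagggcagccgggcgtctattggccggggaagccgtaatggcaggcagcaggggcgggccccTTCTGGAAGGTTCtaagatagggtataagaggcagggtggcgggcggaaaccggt
HSP90AA1, chr14:102087045-102087194, minus strand: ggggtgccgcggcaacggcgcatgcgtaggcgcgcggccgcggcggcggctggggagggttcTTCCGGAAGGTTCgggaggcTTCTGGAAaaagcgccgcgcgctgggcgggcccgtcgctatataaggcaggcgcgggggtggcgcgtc
DNAJB1, chr19:14518398-14518547, minus strand: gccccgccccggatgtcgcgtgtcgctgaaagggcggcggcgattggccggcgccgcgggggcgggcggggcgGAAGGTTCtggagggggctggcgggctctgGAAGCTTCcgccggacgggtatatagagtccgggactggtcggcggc
Capitals longer than 8 bases mark overlapping matches, that is 3 alternating units in a row.

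HSPA1A and HSPA1B carried the same match, GAATATTC, 106 and 105 bases before their starts, and their 300-base promoters were identical at 277 positions (92.0%). HSPA6, HSPA8 and the downstream start of HSP90AA1 had 3 alternating units, at 74, 55 and 88 bases before the start, and HSPA8 had another run of 3 units 230 bases before it. Runs of 3 units were found in 172 of 35116 RefSeq promoters (0.490%), and either 2-unit motif in 13.5%. Both 2-unit motifs read the same on either strand. At the second of its 3 starts, DNAJB1 had GAANNTTC at 77 and at 47 bases before the start, and HSPB1 had it at 182. No match was found in these windows for HSPH1, BAG3 or the first starts of DNAJB1 and HSP90AA1. These matches describe letters in the reference, and binding was not measured.

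**Figure D1:**
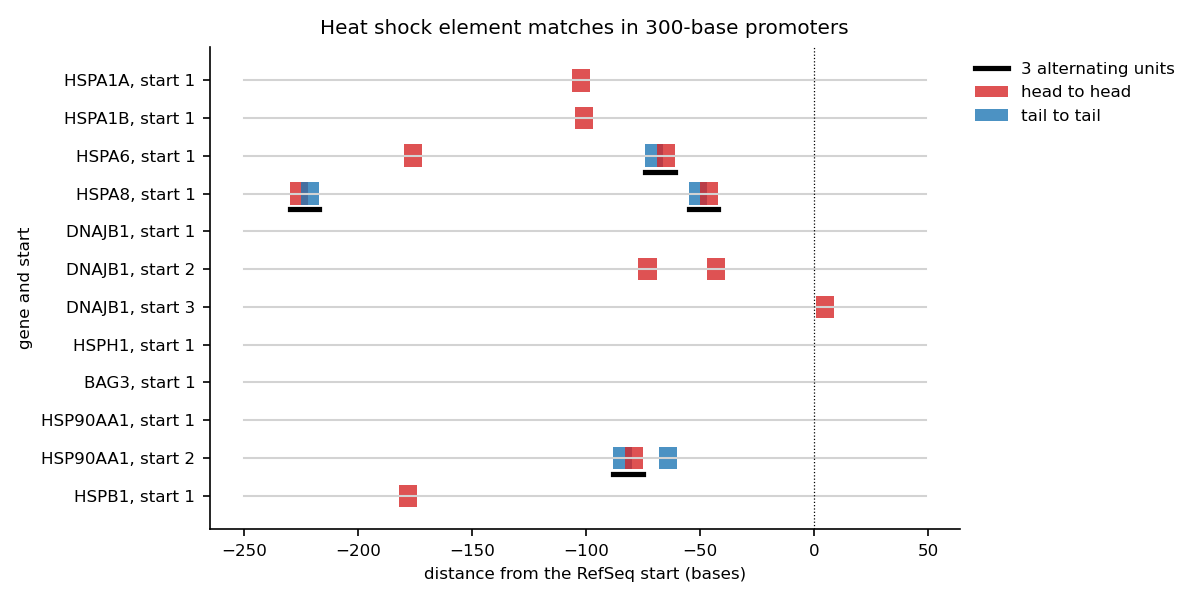
Positions of heat shock element matches in 300-base RefSeq promoters, 1 line per gene and start, with distance from the start in bases on the x axis. HSF1 was not searched. Red boxes are GAANNTTC (head to head), blue boxes TTCNNGAA (tail to tail), and black bars runs of 3 alternating units, which occur in HSPA6, HSPA8 and the second start of HSP90AA1.

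In the 53 treated libraries outside the inhibitory doses, HSPH1 varied least among the 9 genes other than HSPA6. It ran between 136.5 and 170.1 CPM, with a median of 151 CPM and a coefficient of variation of 5.70%. The coefficient was 7.43% for HSF1, 7.68% for DNAJB1, 8.22% for BAG3, 8.28% for HSP90AA1 and 9.08% for HSPA8. It was larger for HSPA1A (13.2%), HSPB1 (13.8%) and HSPA1B (17.2%), and HSPB1 ran between 20.8 and 60.5 CPM in these libraries. Levels can be set beside each other only per length. In vehicle, per kilobase of transcript, HSPA8 had 574 CPM and HSP90AA1 564 CPM, while HSPA1A and HSPA1B together had 145 CPM and BAG3 had 19.2 CPM. HSPA8 and HSP90AA1 thus stood well above the inducible HSP70 pair and BAG3 in vehicle.

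**Figure D2:**
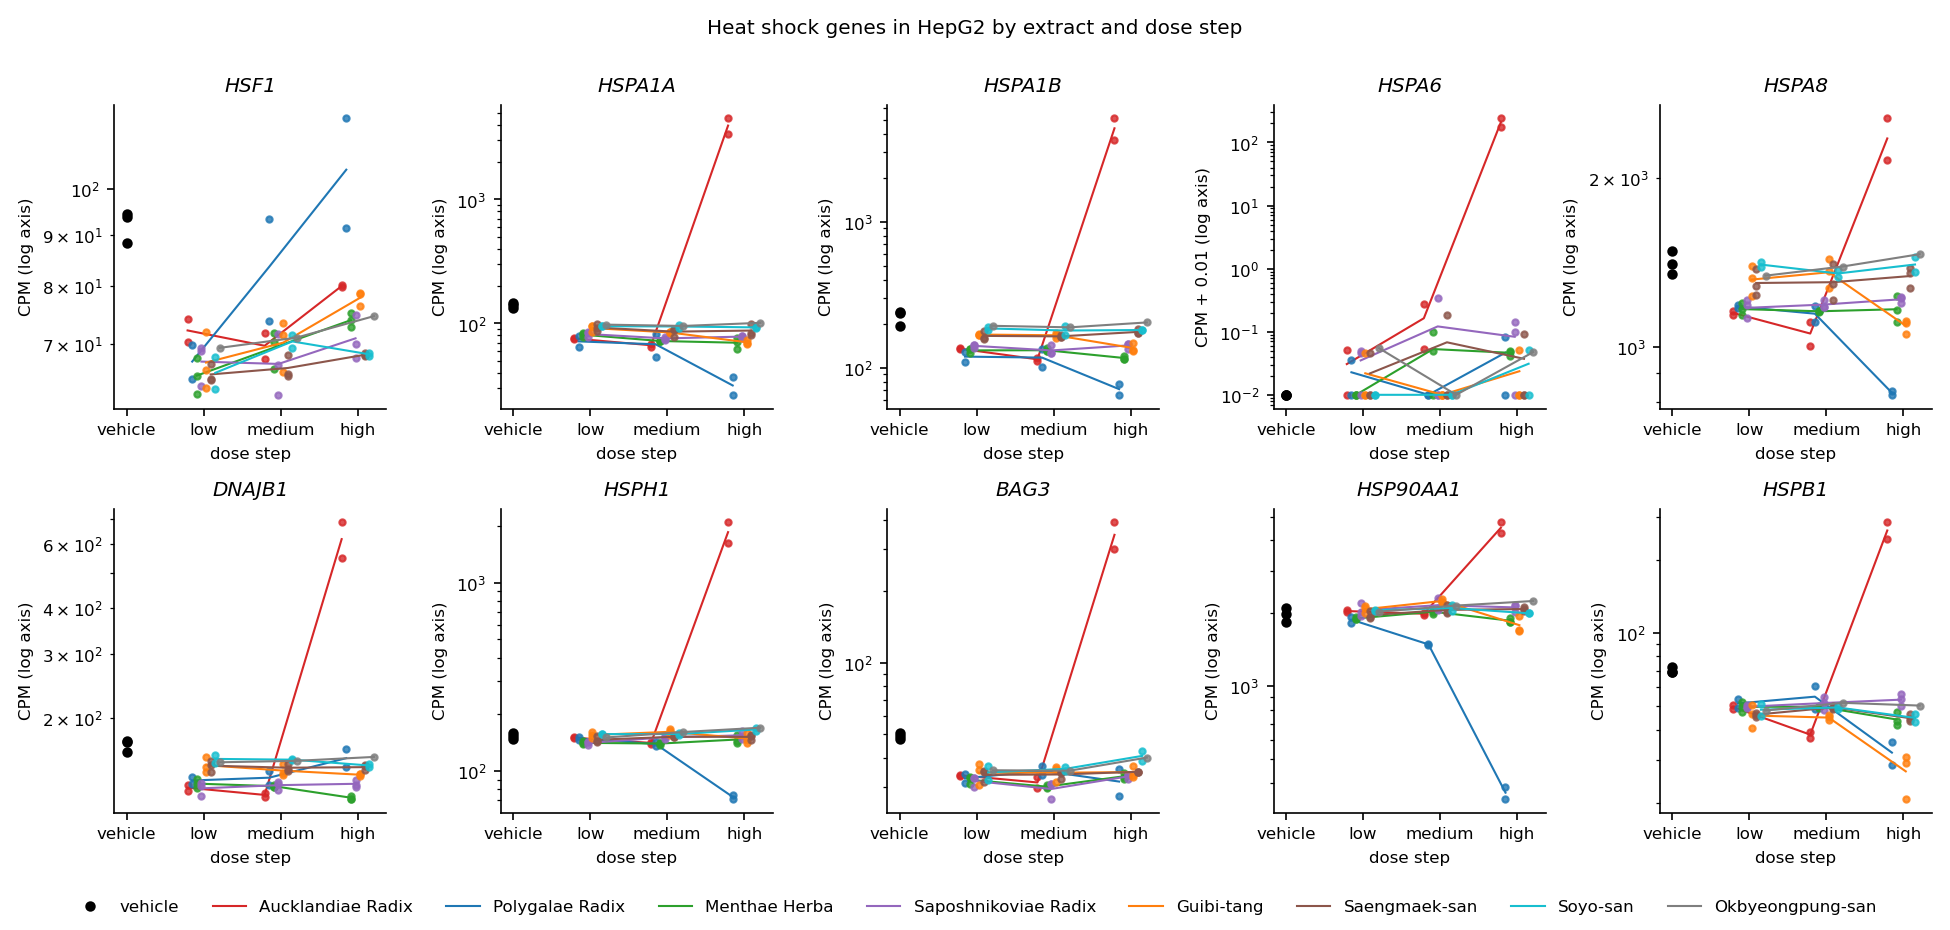
CPM of each gene in every library (points) with group means joined by lines, by dose step from vehicle to high dose, on log axes (HSPA6 with 0.01 CPM added so that zeros show). The high dose of Aucklandiae Radix has the highest mean for 9 genes, and the share of all genes for which it does was not counted. The mean of HSF1 is highest with Polygalae Radix at its high dose. Without replicate 2 of that dose HSF1 stood at a log2 change of -0.018 against vehicle.

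All of the chaperone genes tested rose with Aucklandiae Radix at 280 ug/mL, and HSF1 was not called. Against its own dose of 11.2 ug/mL, 8 of the 9 genes were called higher and 0 lower, at an edgeR Benjamini-Hochberg adjusted p under 0.05. In the same comparison 69.4% of all tested genes were called, 33.9% higher and 35.5% lower. The median log2 fold change of the 9 genes was 2.41, against -0.02 over all tested genes. At 56 ug/mL no gene of the list was called higher than at 11.2 ug/mL.

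The stress-inducible HSP70 genes changed most. HSPA1A had 4503 and 3381 CPM at 280 ug/mL, against 75.9 and 75.4 CPM at 11.2 ug/mL. Both high-dose libraries lay far above every other library of the study, the next highest being vehicle with 134, 145 and 141 CPM. The fold was 52.0 against the low dose (log2 5.70 ± 0.14, SE, adjusted p = 1.86e-34), rank 64 of 16982 genes from the highest. HSPA1B, its neighbour on chromosome 6, had 5123 and 3641 CPM at 280 ug/mL, against 134 and 135 CPM at 11.2 ug/mL, a log2 change of 5.02 ± 0.12 (adjusted p = 1.75e-34).

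The transcripts of HSPA1A and HSPA1B are near-identical (88.2% over the longest coding transcripts, UTRs included), so how their reads were split between them is uncertain and their sum is firmer. Together they had 9627 and 7022 CPM at 280 ug/mL, against 210 and 211 CPM at 11.2 ug/mL. HSPA1A took 47.5% ± 0.97 of that sum at 280 ug/mL and 36.0% ± 0.24 at 11.2 ug/mL (SD, n = 2 each), while the share in vehicle was 38.7% ± 2.0 (SD, n = 3). In the groups other than Aucklandiae Radix at 280 ug/mL its mean share ran between 30.6% (Polygalae Radix, 250 ug/mL) and 38.7%. The split itself was not tested.

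HSPA6, a strictly inducible HSP70 gene on chromosome 1, was nearly without reads in all other groups. It had 240.4 and 178 CPM with Aucklandiae Radix at 280 ug/mL, or 10043 reads. In vehicle it had 0 reads in each of 3 libraries, so the level at the high dose was at least 1590-fold higher, taking 3 counts in each vehicle library as the floor. Against 11.2 ug/mL, where 1 read was counted, the ratio was 10500, with a 95% counting interval of 1880 to 414000. At 56 ug/mL it had 7 reads, which gives a ratio of 1360 (661 to 3390). These bounds cover counting error only.

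Across the 58 libraries without Aucklandiae Radix at 280 ug/mL, HSPA6 had 44 reads in all. It was at 0 in 35 of them, its highest count was 8 and 3 libraries exceeded the floor. Its neighbour and near copy HSPA7 had 36 reads at 280 ug/mL, against 1 at 11.2 ug/mL, a ratio of 37.6 (6.33 to 1530). Reads of the pair could be split by the counting, which leaves HSPA7 uncertain.

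HSPA8, the constitutive HSP70 of the cytosol, had 2549 and 2148 CPM at 280 ug/mL, against 1160 and 1141 CPM at 11.2 ug/mL. The groups did not overlap and the log2 change was 1.02 ± 0.07 (adjusted p = 1.49e-18). Per kilobase HSPA8 stood at 954 CPM at 280 ug/mL and the summed HSPA1A and HSPA1B at 3326 CPM, whereas in vehicle HSPA8 stood at 574 CPM and the sum at 145 CPM. The order of inducible and constitutive HSP70 was thus reversed at the high dose.

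The co-chaperones of HSP70 moved with it. HSPH1, which opens the nucleotide pocket of HSP70 and also holds unfolded proteins itself, had 2092 and 1621 CPM at 280 ug/mL, against 149.8 and 151 CPM at 11.2 ug/mL, a fold of 12.3 (log2 3.62 ± 0.07, adjusted p = 4.24e-38). BAG3, an exchange factor that routes clients to autophagy, had 389.8 and 301 CPM at 280 ug/mL, against 33.5 and 33.9 CPM at 11.2 ug/mL, a fold of 10.2 (log2 3.35 ± 0.09, adjusted p = 2.72e-32). DNAJB1, the J-domain protein paired with inducible HSP70, had 686 and 549 CPM at 280 ug/mL, against 131 and 127 CPM at 11.2 ug/mL, a fold of 4.77 (log2 2.25 ± 0.06, adjusted p = 1.91e-32). In all 3 genes, both high-dose libraries lay above every other library of the study. The share of all genes that did so was not counted.

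HSP90AA1, the stress-inducible cytosolic HSP90, was already abundant and had 4741 and 4269 CPM at 280 ug/mL, against 2070 and 2017 CPM at 11.2 ug/mL. Its log2 change of 1.14 ± 0.06 (adjusted p = 7.63e-21) was close in size to that of HSPA8, the other gene with a high basal level. HSPB1, a small heat shock protein also known for guarding actin filaments, had 284.5 and 242 CPM at 280 ug/mL, against 48.8 and 50.3 CPM at 11.2 ug/mL (log2 2.41 ± 0.10, adjusted p = 4.97e-26). At 56 ug/mL HSPB1 had 39.3 and 37.1 CPM, which was called lower than at 11.2 ug/mL by a log2 change of -0.38 ± 0.10 (adjusted p = 0.0236, 4.35% of all genes called). That call was lost when any 1 of the 4 libraries was left out and with the replicate number as a block within the set (adjusted p = 0.0717).

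The transcript of HSF1 itself did not follow its targets. It had 79.8 and 80.2 CPM with Aucklandiae Radix at 280 ug/mL, against 70.3 and 74.2 CPM at 11.2 ug/mL, and was not called (log2 0.14 ± 0.08, adjusted p = 0.105). It was called higher with RLE scaling (0.18, adjusted p = 0.0378), with DESeq2 (0.18, adjusted p = 0.0404), with a filter at a mean of 1 CPM (0.20, adjusted p = 0.0200), with the fit limited to both groups (0.14, adjusted p = 0.0382) and with the GC trend removed (0.23, adjusted p = 6.97e-05). Activity of HSF1 is set mainly on the protein, by trimer formation and phosphorylation, which RNA does not measure.

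**Figure D3:**
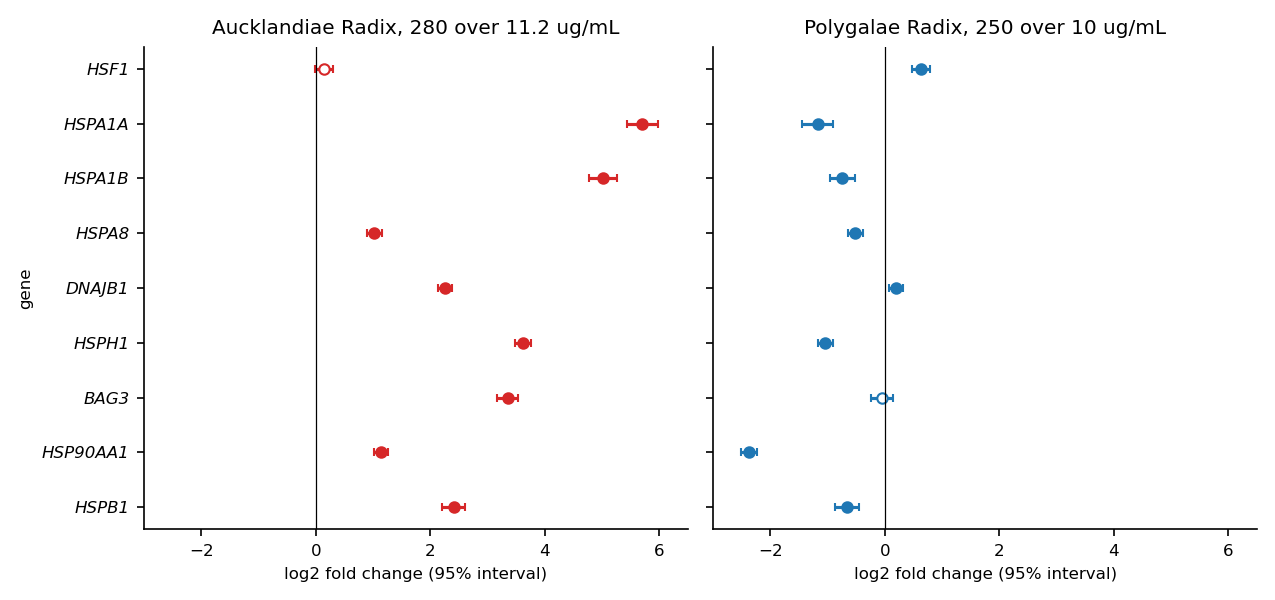
Log2 fold change of high over low dose with 95% intervals for 9 genes, with Aucklandiae Radix on the left and Polygalae Radix on the right (filled points are called at an adjusted p under 0.05). All genes but HSF1 are called higher on the left, while HSP90AA1 falls furthest on the right, at -2.38.

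Polygalae Radix, also given at an inhibitory dose and in the same set, showed a different pattern. At 250 ug/mL against 10 ug/mL, 6 of the 9 genes were called lower and 2 higher, in a comparison where 64.1% of all genes were called, 33.0% lower and 31.1% higher. The median log2 fold change of the 9 genes was -0.67, against -0.01 over all tested genes. HSP90AA1 fell furthest, with 344 and 385 CPM at 250 ug/mL, against 1936 and 1829 CPM at 10 ug/mL. Its log2 change of -2.38 ± 0.07 (adjusted p = 4.87e-32) was rank 249 of 16982 genes from the lowest. At 50 ug/mL it was called lower than at 10 ug/mL, with 1498 and 1480 CPM (log2 -0.34 ± 0.06, adjusted p = 0.000195, 8.41% of all genes called). That call was lost with the fit limited to both groups (-0.34, adjusted p = 0.135), where only 20 of all genes were called.

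The HSP70 genes and HSPH1 fell less. HSPA1A had 36.7 and 26.6 CPM at 250 ug/mL, against 79.4 and 64.0 CPM at 10 ug/mL (log2 -1.17 ± 0.13, adjusted p = 1.09e-10). HSPH1 had 71.4 and 74.7 CPM at 250 ug/mL, against 151 and 147 CPM at 10 ug/mL (log2 -1.04 ± 0.07, adjusted p = 2.90e-18). Both were lower in each library at 250 ug/mL than in any other library of the study, but the share of all genes that were so was not counted. HSPA1B, HSPB1 and HSPA8 fell by 0.74, 0.67 and 0.52 on the log2 scale, and HSPA8 had 837 and 823 CPM at 250 ug/mL, against 1190 and 1172 CPM at 10 ug/mL. HSPA6 had 2 reads at 250 ug/mL and 1 read at 10 ug/mL, both under the floor.

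BAG3 and DNAJB1 were not called lower with Polygalae Radix. BAG3 had 35.7 and 27.7 CPM at 250 ug/mL, against 31.4 and 34.0 CPM at 10 ug/mL, a log2 change of -0.06 (95% interval -0.25 to 0.14). Without replicate 2 of the high dose it was called lower (-0.26, adjusted p = 0.0485). DNAJB1 had 164 and 147 CPM at 250 ug/mL, against 132 and 138 CPM at 10 ug/mL, and was called higher by a log2 change of 0.20 ± 0.06 (adjusted p = 0.00435). That call was lost without replicate 2 of the high dose (0.10, adjusted p = 0.228) and with the fit limited to both groups (adjusted p = 0.0951).

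HSF1 rose with Polygalae Radix. It had 117 and 91.4 CPM at 250 ug/mL, against 69.9 and 64.7 CPM at 10 ug/mL (log2 0.63 ± 0.08, adjusted p = 1.08e-09). At 50 ug/mL it had 93.3 and 73.9 CPM, called higher than at 10 ug/mL (log2 0.31 ± 0.08, adjusted p = 0.00786). The 2 libraries of each of the upper doses stood well apart, and replicate 2 was the higher at both. The log2 trend of counts with GC content was 0.12 and 0.178 per 10 points of GC in replicate 2 at 250 and 50 ug/mL, and -0.082 and 0.007 in replicate 3, and the transcript of HSF1 is 63.9% GC. With the GC trend removed HSF1 stood at 0.58 (adjusted p = 7.60e-15) at 250 ug/mL and at 0.15 (adjusted p = 0.0484) at 50 ug/mL. The HSF1 call at 50 ug/mL was lost without replicate 2 of that dose (0.14, adjusted p = 0.592) and without replicate 3 of the low dose (0.25, adjusted p = 0.161). With the replicate number as a block within the set its adjusted p was 0.211, and with the fit limited to both groups neither HSF1 nor HSP90AA1 was called at 50 ug/mL.

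The difference between the dose responses of the 2 extracts was tested directly, as high minus low of Aucklandiae Radix minus high minus low of Polygalae Radix. All 9 genes were called, 8 higher and HSF1 lower. Of all 16982 tested genes, 10202 were called in either direction, and 31.4% were called higher. The log2 difference ran from 1.54 ± 0.09 for HSPA8 to 6.87 ± 0.18 for HSPA1A, and it was 3.51 ± 0.09 for HSP90AA1 and -0.49 ± 0.11 for HSF1. Between the top doses themselves, which differ in concentration, all 9 genes were called in the same directions. There 11890 of all 16982 tested genes were called in either direction, and 36.6% were called higher. HSP90AA1 had 4741 and 4269 CPM with Aucklandiae Radix at 280 ug/mL, against 344 and 385 CPM with Polygalae Radix at 250 ug/mL, a log2 difference of 3.63 ± 0.07 (adjusted p = 2.53e-38). The HSF1 difference between the top doses was lost without replicate 2 of Polygalae Radix (-0.18, adjusted p = 0.0512).

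With Guibi-tang several of these genes fell by smaller amounts at 500 ug/mL. At 500 ug/mL against 20 ug/mL, 5 of the 9 genes were called lower and HSF1 higher, where 17.5% of all genes were called lower and 16.8% higher. HSPB1 had 30.9, 20.8 and 29.2 CPM at 500 ug/mL, against 50.6, 46.2 and 40.5 CPM at 20 ug/mL, with no overlap (log2 -0.76 ± 0.09, adjusted p = 1.21e-09). This was the lowest mean of HSPB1 among the 25 groups, at 27.0 ± 5.4 CPM (SD, n = 3), but its libraries overlapped those of Polygalae Radix at 250 ug/mL.

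The other Guibi-tang calls were a fall by 0.38 for HSPA1A, 0.31 for HSPA1B, 0.28 for HSPA8 and 0.22 for HSP90AA1, each on the log2 scale. HSPA8 had 1055, 1105 and 1115 CPM at 500 ug/mL, against 1233, 1327 and 1396 CPM at 20 ug/mL. HSF1 was higher by 0.21 ± 0.06 (adjusted p = 0.00887), a call that was lost without replicate 3 of the low dose (0.17, adjusted p = 0.0698). At 100 ug/mL none of the 9 genes was called against 20 ug/mL with Guibi-tang (3.60% of all genes called), nor with Menthae Herba (0.118%), Saposhnikoviae Radix (0.0118%), Saengmaek-san (0% of all genes) or Soyo-san (0.00589%).

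Set against Saengmaek-san of the same set and dose, Guibi-tang at 500 ug/mL had 5 of the 9 genes lower and HSF1 higher, where 17.0% of all genes were called lower. HSPB1 had 30.9, 20.8 and 29.2 CPM with Guibi-tang, against 43.3, 46.4 and 44.1 CPM with Saengmaek-san (log2 -0.72 ± 0.09, adjusted p = 7.16e-09). The call for HSPA1A was lost without replicate 3 of Saengmaek-san (-0.22, adjusted p = 0.128), and that for HSF1 without any of several single libraries. In the test of the difference in dose response 4 genes were called, all lower with Guibi-tang (HSPB1, HSPA1B, HSPA8 and HSP90AA1), where 10.2% of all genes were called lower. HSPA1A was called lower there too without a filter on low counts (-0.304, adjusted p = 0.000729). The same held with only the groups of the contrast (-0.305, adjusted p = 0.0484) and with the replicate block within the set (-0.305, adjusted p = 0.0132).

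Menthae Herba had 2 of the 9 genes called at 500 ug/mL against 20 ug/mL, where 23.3% of all genes were called. HSF1 had 72.9, 74.0 and 75.2 CPM at 500 ug/mL, against 65.1, 67.9 and 62.6 CPM at 20 ug/mL (log2 0.18 ± 0.06, adjusted p = 0.0407). DNAJB1 had 123, 120.4 and 120.6 CPM at 500 ug/mL, against 129, 132 and 136 CPM at 20 ug/mL (log2 -0.13 ± 0.05, adjusted p = 0.0465). The 2 doses did not overlap in either gene, though the share of all genes without overlap was not counted. Both calls lie near the threshold, and 0 or 1 gene was called when a library was left out. The largest log2 change was that of HSPA1A (-0.22 ± 0.10), which had 71.3, 76.2 and 62.2 CPM at 500 ug/mL, against 82.0, 83.4 and 77.9 CPM at 20 ug/mL, and was not called (adjusted p = 0.118). HSPA1A, HSPA1B and HSPB1 were called lower without a filter on low counts, with the fit limited to both doses and with the replicate block within the set, at adjusted p from 0.00131 to 0.0453.

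Against Saposhnikoviae Radix at the same 500 ug/mL, Menthae Herba had HSPA1B, HSP90AA1 and HSPB1 lower (3 of 9 genes, where 11.8% of all genes were called lower). Their log2 differences were -0.29 ± 0.09, -0.19 ± 0.05 and -0.28 ± 0.08. The HSPB1 call was lost without replicate 1 of Menthae Herba (-0.24, adjusted p = 0.0672) or replicate 1 of Saposhnikoviae Radix (-0.24, adjusted p = 0.0741), and with the replicate block within the set HSPA1A (-0.16) and DNAJB1 (-0.12) were called lower too. No gene of the list was called in the test of the difference in dose response between these extracts, where 10.6% of all genes were called, and the widest of the 9 fitted differences was -0.28 ± 0.12 for HSPB1. HSPB1 was called there without a filter on low counts (-0.25, adjusted p = 0.0397).

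At 500 ug/mL against 20 ug/mL, none of the 9 genes was called for Saposhnikoviae Radix (0.830% of all genes called), Saengmaek-san (0.436%) or Soyo-san (3.95%). Their largest log2 changes were 0.14 for HSPH1 with Saposhnikoviae Radix, 0.09 for HSPA1B with Saengmaek-san and 0.22 for BAG3 with Soyo-san. BAG3 had 42.8 and 38.5 CPM with Soyo-san at 500 ug/mL, against 37.0 and 32.3 CPM at 20 ug/mL, with an interval of 0.02 to 0.42 and an adjusted p of 0.277. It was called higher there with the replicate block within the set (0.228, adjusted p = 0.0302). With Okbyeongpung-san, 1 library per dose and no test, the 9 genes other than HSPA6 differed between 500 and 20 ug/mL by 0.05 (DNAJB1) to 0.18 (BAG3) on the log2 scale.

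**Figure D4:**
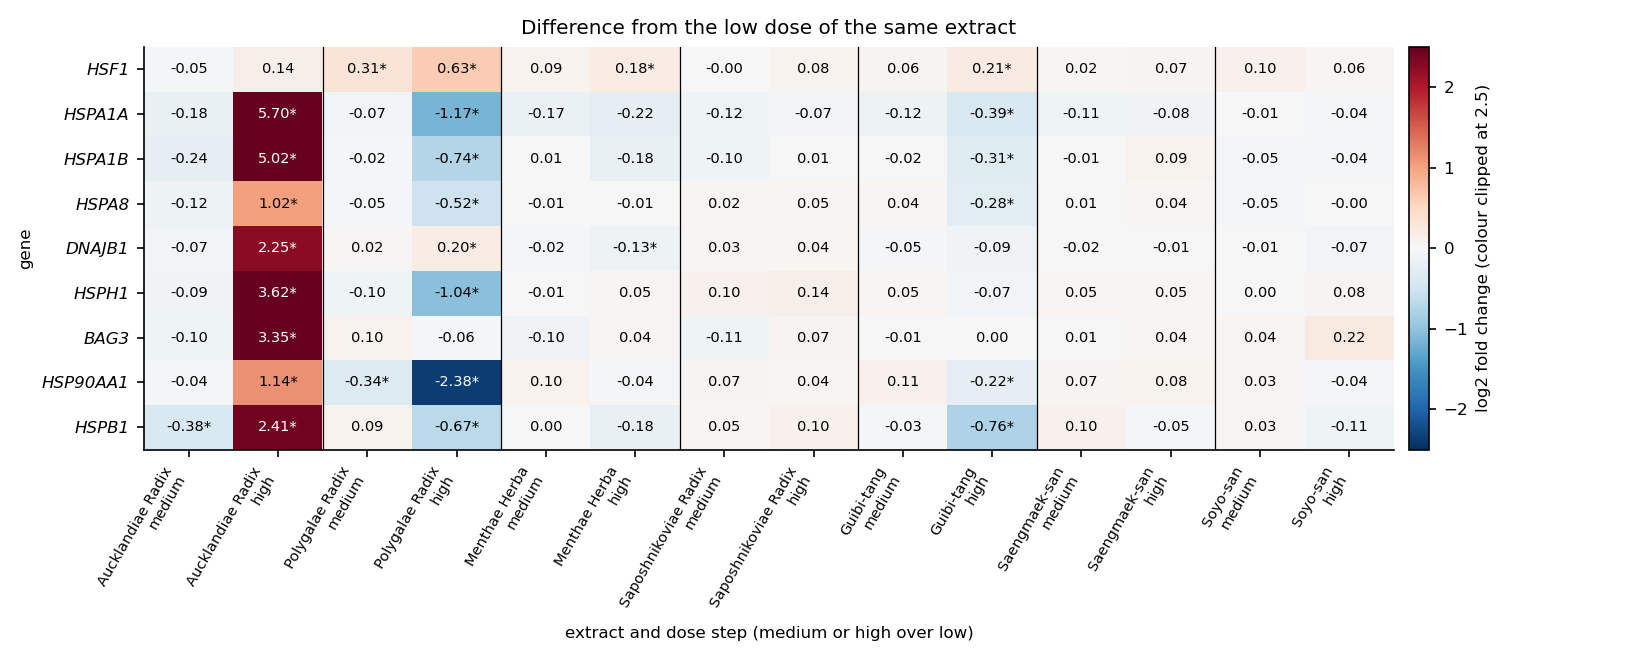
Log2 fold change of the medium and of the high dose over the low dose of the same extract, for 9 genes (rows) and 7 extracts (column pairs), with * for an adjusted p under 0.05. Large values stand in the high-dose columns of Aucklandiae Radix and Polygalae Radix, and the medium-dose columns hold 3 calls in all.

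Vehicle stood apart from the low doses for several of these genes. At the low dose 7 of the 9 genes were called lower than vehicle with Aucklandiae Radix (16.4% of all genes called lower), Polygalae Radix (17.4%), Menthae Herba (18.6%) and Saposhnikoviae Radix (18.5%), and none higher. The count was 6 with Guibi-tang (19.7% of all genes called lower) and Saengmaek-san (18.5%) and 5 with Soyo-san (16.6%), again with none higher. HSPA1A had 75.9 and 75.4 CPM with Aucklandiae Radix at 11.2 ug/mL, against 134, 145 and 141 CPM in vehicle (log2 -0.89 ± 0.11, adjusted p = 5.64e-08). In HSPA1A, BAG3 and HSPB1 all 3 vehicle libraries lay above every treated library other than those of Aucklandiae Radix at 280 ug/mL. How many of all genes stood apart from vehicle in this way was not counted. HSPH1 and HSP90AA1 were called in none of the 7 low doses against vehicle, but with the GC trend removed HSPH1 was called lower in 6 of them, by log2 changes of -0.15 (Guibi-tang) to -0.29 (Saposhnikoviae Radix), and HSP90AA1 in 1 (Polygalae Radix, -0.15, adjusted p = 0.0300).

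These comparisons share the same 3 vehicle libraries, and the vehicle label and the treatment cannot be told apart. The log2 trend of counts with GC content was 0.082, 0.21 and 0.207 per 10 points of GC in vehicle, at the upper end of -0.103 to 0.21 over all libraries, and its part in these differences was not tested beyond a fit with the trend removed. HSF1 with Aucklandiae Radix at 280 ug/mL was lower than vehicle by a log2 change of -0.20 (adjusted p = 0.0106), but stood at 0.09 in the fit with the trend removed. HSPA1A, HSPA1B, HSPH1, BAG3, DNAJB1, HSP90AA1, HSPB1 and HSPA8 were called higher than vehicle at that dose, with log2 changes of 4.81, 4.30, 3.60, 2.81, 1.87, 1.19, 1.91 and 0.73, where 36.6% of all genes were called higher.

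Against vehicle, Polygalae Radix at 250 ug/mL had 8 genes lower and HSF1 higher (33.8% of all genes called lower). Of the 8, DNAJB1 lost its call in several alternative fits, among them RLE scaling (-0.117, adjusted p = 0.0607) and DESeq2 (-0.117, adjusted p = 0.0645). With the GC trend removed DNAJB1 stood at 0.064. HSPA1A stood at a log2 change of -2.14 ± 0.12 and HSP90AA1 at -2.44 ± 0.06. HSF1 was higher by 0.18 ± 0.07 (adjusted p = 0.0206), but it stood at -0.02 without replicate 2 of the high dose. At 500 ug/mL against vehicle, 7 genes were lower with Menthae Herba (24.2% of all genes called lower) and with Saposhnikoviae Radix (19.9%), 8 with Guibi-tang (25.4%), and 6 with Saengmaek-san (20.0%) and Soyo-san (19.0%). The count for Soyo-san was 3 without its replicate 2 of the high dose and 3 with the GC trend removed.

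At the low doses HSPA1A, HSPA1B, HSPA8 and DNAJB1 were higher in every library of sets 13 and 14 than in any of sets 11 and 12. HSF1, HSPH1, BAG3, HSP90AA1 and HSPB1 did not separate in this way, and how many of all genes did was not counted. HSPA1B had medians of 131 and 136 CPM over the low-dose libraries of sets 11 and 12 (n = 4 and 6), and of 168 and 191 CPM over those of sets 13 and 14 (n = 6 and 3). HSPA8 had medians of 1166, 1177, 1305 and 1386 CPM in sets 11, 12, 13 and 14. DNAJB1 had at least 142.6 CPM in sets 13 and 14 and at most 137.8 CPM in sets 11 and 12, while for HSPA1A the gap was narrow, at 84.65 and 84.64 CPM. Sets hold different extracts, so set and extract cannot be told apart.

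Around these genes, 94 further chaperone and stress genes were placed in 10 lists. Those that passed the filter without the high dose of Aucklandiae Radix were counted at the high dose against the low dose. The median log2 change over all genes was -0.02 with Aucklandiae Radix and -0.01 with Polygalae Radix. Of all genes, 33.9% were called higher and 35.5% lower with Aucklandiae Radix and 31.1% higher and 33.0% lower with Polygalae Radix, and a list near these shares is no result about the list. These lists were chosen with earlier results of these data known. Of 7 other cytosolic HSP70 family genes that passed the filter without the high dose of Aucklandiae Radix (HSPA7 did not), 4 rose and 1 fell with Aucklandiae Radix, including HSPA1L, which lies beside HSPA1A (log2 3.69), and HSPA2 (2.89). HSPA1L had 12.9 CPM at 280 ug/mL, against 0.992 CPM at 11.2 ug/mL, and its coding sequence is close to that of HSPA1A, so some of its reads could belong there. With Polygalae Radix 2 of the 7 rose and 3 fell, with the exchange factor HSPA4L at -1.39 and its relative HSPA4 at -0.90.

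J-domain proteins rose broadly with Aucklandiae Radix, 10 of 11 with none lower (median 0.69), among them DNAJB4 (3.24), DNAJB2 (1.70) and DNAJA1 (1.26). DNAJB4 had 73.3 CPM at 280 ug/mL, against 7.72 CPM at 11.2 ug/mL. With Polygalae Radix 2 rose and 4 fell, led by DNAJB5 (-0.76). Of the 9 HSP70 exchange factors and regulators, 5 rose and 2 fell with Aucklandiae Radix, with BAG1 at 0.89 and the ubiquitin ligase STUB1 at -0.78. With Polygalae Radix 2 rose and 4 fell, with the HSP70 interactor ST13 at -1.55 and BAG6 at -1.42.

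Of 13 genes of HSP90 and its co-chaperones 9 rose and 2 fell with Aucklandiae Radix (median 0.56), with CHORDC1 at 1.63, CACYBP at 1.33 and the immunophilin FKBP4 at 1.24. With Polygalae Radix 3 rose and 9 fell (median -0.42). The constitutive HSP90AB1 had 774 CPM with Polygalae Radix at 250 ug/mL, against 3110 CPM at 10 ug/mL (log2 -2.01), and it had 5950 CPM with Aucklandiae Radix at 280 ug/mL, against 3230 CPM at 11.2 ug/mL (0.88). All 4 tested small heat shock proteins of 7 listed rose with Aucklandiae Radix, HSPB8, the partner of BAG3, by 4.87 and CRYAB by 1.85, and none of the 4 was called with Polygalae Radix. HSPB8 had 23.0 CPM at 280 ug/mL, against 0.778 CPM at 11.2 ug/mL. HSPB6 had only 0.604 CPM at 280 ug/mL, against 0.217 CPM at 11.2 ug/mL and 0.569 CPM in vehicle. The remaining gene of the 4 was also under 1 CPM at both doses.

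The chaperonin TRiC, a double ring of 8 kinds of subunit that folds actin and tubulin, split with Aucklandiae Radix, where 2 subunits rose, TCP1 at 1.07, and 5 fell, CCT7 at -0.68 and CCT5 at -0.51. With Polygalae Radix all 8 subunits fell (median -1.08), CCT3 furthest at -1.47. Of 9 mitochondrial chaperones 4 rose and 3 fell with Aucklandiae Radix, with HSPD1, the matrix chaperonin, at 0.96 and the HSP90 relative TRAP1 at -1.53. With Polygalae Radix 7 of the 9 fell, with HSPD1 at -1.80. Of 13 chaperones of the endoplasmic reticulum 6 rose and 3 fell with Aucklandiae Radix, DNAJB9 at 2.12 and PDIA4 at -1.03, and 12 of 13 fell with Polygalae Radix (median -1.75), PDIA4 at -2.41. HSPA5 (BiP) was at 1.21 with Aucklandiae Radix and -2.37 with Polygalae Radix.

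Of 5 tested genes of the HSF family and its regulators, none rose and 1 fell with Aucklandiae Radix, and HSF2 rose by 0.50 with Polygalae Radix, where 2 fell. Of 10 partners in the response to damaged proteins 9 rose and 1 fell with Aucklandiae Radix (median 2.12), led by PPP1R15A (4.22), ATF3 (3.88) and HMOX1 (3.80). ATF3 (1.86) and PPP1R15A (1.61) also rose with Polygalae Radix, where HMOX1 fell by 1.44. PPP1R15A, a phosphatase subunit that reverses the block of translation by phosphorylated eIF2, had 276 CPM with Aucklandiae Radix at 280 ug/mL, against 14.8 CPM at 11.2 ug/mL.

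**Figure D5:**
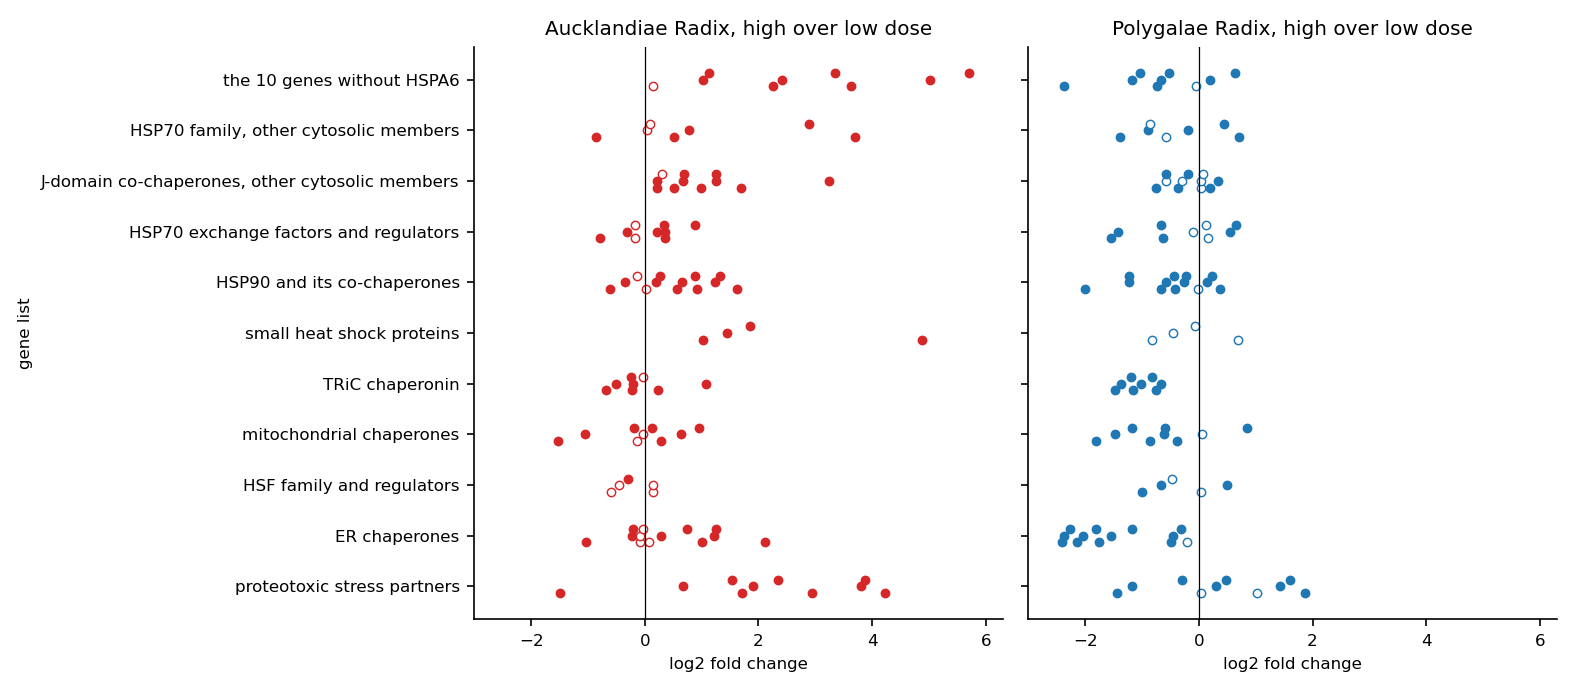
Log2 fold change of high over low dose for each gene (points, filled where called at an adjusted p under 0.05) of the 10 described genes and of 10 lists of related genes, with Aucklandiae Radix on the left and Polygalae Radix on the right. HSPA6 and HSPA7 are not drawn, and TRiC and chaperones of the endoplasmic reticulum lie mostly below 0 on the right.

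Over the 25 group means, the genes of the list followed each other to different degrees, given here as a description in which 1 group, the high dose of Aucklandiae Radix, weighs heavily. The Pearson correlation of log2 CPM between HSPA1B and HSPA8 was 0.91 over all groups and 0.93 over the 23 groups without the inhibitory doses, and that between HSPA1A and HSPH1 was 0.99 and 0.57. HSF1 and HSPA1A had 0.05 and 0.24. Of 11437 genes compared, those most like the sum of HSPA1A and HSPA1B were TSPYL2 (0.98), SYNJ1 (0.98) and GAPVD1 (0.97), and without the high dose of Aucklandiae Radix their values were 0.81, 0.78 and 0.74. Those most like HSPA8 were EIF2AK3 (0.95), the kinase PERK of the unfolded protein response, DNAJB11 (0.92) and SGO2 (0.91).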

How the data were processed

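RNA of 60 HepG2 libraries was measured by sequencing. Per the submitters' processing notes, the tools were FastQC 0.11.9, Trim Galore 0.6.5, STAR 2.7.3a and RSEM 1.3.3 with the build GRCh38. The authors deposited RSEM expected counts per gene, not normalized, of which 9.97% were not whole, and these were rounded. Neither the annotation release nor the strand setting is given in the sources used here. Without strand, overlapping genes cannot be told apart, and reads shared between near-identical copies may be split.

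Members were matched by symbol through a table of gene IDs. Gene positions are those of GENCODE 29 (GRCh38) and promoters those of RefSeq (GRCh38.p14). All columns were used, and rows without a symbol held 0.130% of counts. Genes were tested with the edgeR 4.0.16 quasi-likelihood test in R 4.3.3, after TMM scaling and filterByExpr with a minimum count of 10, in 1 fit of 57 libraries in 22 groups (35 residual degrees of freedom, 16982 genes). In each of 34 contrasts a gene was called at a Benjamini-Hochberg adjusted p under 0.05. The fit left out Okbyeongpung-san, which had 1 library at each dose. Log2 CPM used a prior count of 2. Pairing was taken as a correlation over 0.1 between same-numbered deviations in every pair. Of 12 comparisons with 3 pairs, 1 met this, the medium against the low dose of Saposhnikoviae Radix (0.21 to 0.47). None of the genes described was called there with or without the replicate block. With 2 pairs, the medium against the low dose of Polygalae Radix (0.23) and Aucklandiae Radix (0.15) met it, and these hold the medium-dose calls. So did the high dose of Soyo-san against its low dose (0.14) and against vehicle. No pair of libraries of a group agreed within sampling noise (chi-square per gene at least 1.79).

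The members and the lists were chosen with earlier results of these data known. All members are named, and of each list at most the 3 called genes with the largest changes with Aucklandiae Radix and Polygalae Radix, plus HSPA7, HSP90AB1 and HSPA5. HSPA6 and HSPA7 passed the filter only through the high dose of Aucklandiae Radix and are left out of the counts of called genes. Genes like HSPA1A with HSPA1B and like HSPA8 were ranked by Pearson correlation over 25 group means, among genes of at least 5 CPM in 1 group. The alternatives were a fit limited to the groups of a contrast, RLE scaling, DESeq2 1.42.0, a mean of 1 CPM as the filter or none at all, the replicate number as a block, HSPA1A and HSPA1B summed, the GC trend removed, and each library left out.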

Additional observations from a re-analysis of the deposited data

Results flagged for a closer look

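The response to dose differed between the extracts of a set, by the edgeR test of high minus low of one extract minus high minus low of the other. Between Aucklandiae Radix and Polygalae Radix all 9 genes other than HSPA6 differed. In that test 10202 of all 16982 tested genes were called in either direction, and 31.4% were called higher. The log2 difference was 6.87 for HSPA1A, 5.76 for HSPA1B, 4.66 for HSPH1, 3.51 for HSP90AA1, 3.41 for BAG3, 3.08 for HSPB1, 2.06 for DNAJB1 and 1.54 for HSPA8, and -0.49 for HSF1. Both extracts were given at doses that inhibit the cells, and these doses differ in concentration, at 280 and 250 ug/mL.

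Between Guibi-tang and Saengmaek-san, both at 500 over 20 ug/mL, the log2 difference was -0.71 for HSPB1, -0.40 for HSPA1B, -0.32 for HSPA8 and -0.31 for HSP90AA1. Of all genes, 10.2% were called lower in that test. HSPA1A was called lower only in some of the alternative fits.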

How the results depend on the processing

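Counts here are over the 9 genes other than HSPA6. For the high against the low dose they ran from 8 to 9 for Aucklandiae Radix (8 as reported) and from 7 to 8 for Polygalae Radix (8 as reported) under the alternatives, and were 7 and 7 of 8 genes with HSPA1A and HSPA1B summed. The counts near the threshold moved. For Menthae Herba, high against low dose, the count of 2 was 1 with RLE scaling or the GC trend removed, 4 without a filter, 5 with only the groups of the contrast and 0 to 1 when 1 library was left out. Calls over all genes there were 3954 of 16982 as reported, 3936 with RLE scaling and 4837 with the GC trend removed. They were 3664 of 35642 without a filter and 4106 of 14887 with only the groups of the contrast. For Aucklandiae Radix, medium against low dose, the count of 1 was 2 without a filter, 3 with only the groups of the contrast and 0 in every fit that left out a library. Calls over all genes there were 739 of 16982 as reported, 833 of 35642 without a filter and 1193 of 14900 with only the groups of the contrast. For Polygalae Radix, medium against low dose, 2 became 0 with only the groups of the contrast, where calls over all genes fell to 20 against 1429, and 1 to 2 with a library left out. For Menthae Herba, medium against low dose, 0 became 1 with only the groups of the contrast, where calls over all genes were 231 against 20. For Soyo-san against vehicle, high dose, 6 became 3 with the GC trend removed and 3 to 7 with a library left out. Calls over all genes there were 5509 with the GC trend removed, against 6592 as reported. For the difference in dose response between Menthae Herba and Saposhnikoviae Radix, 0 became 1 without a filter and 3 with only the groups of the contrast. Calls over all genes there were 1803 of 16982 as reported, 1634 of 35642 without a filter and 2225 of 15365 with only the groups of the contrast. A shift of a count is no result about the 9 genes where calls over all genes moved too. The cause of these shifts was not tested.

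By the cut-off of 0.1 in every pair, replicate numbers did not pair the samples in 11 of 12 comparisons with 3 pairs (correlations of same-numbered deviations from -0.27 to 0.26). With 2 pairs the correlation was 0.03 for Polygalae Radix and 0.02 for Aucklandiae Radix at the high against the low dose, 0.23 and 0.15 at the medium dose, and 0.14 for Soyo-san at the high dose. With the replicate block in the whole fit all 306 results of single genes, called or not, stayed on their side of the threshold. With the replicate block within the set the counts were 5 for Menthae Herba and 1 for Soyo-san (BAG3), high against low. They were 1 for Polygalae Radix and 0 for Aucklandiae Radix, medium against low. Menthae Herba against Saposhnikoviae Radix had 5 at the high dose (3 without the block) and 2 in the difference in dose response. Calls over all genes at the medium dose were 128 for Polygalae Radix and 172 for Aucklandiae Radix with this block (1429 and 739 without it). For Menthae Herba, high against low, they were 4752 of 15576 with it and 3954 of 16982 without it.

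Single genes turned sign with the GC trend removed: DNAJB1 with Polygalae Radix (0.064), HSF1 with Aucklandiae Radix (0.087) and Guibi-tang (0.024) and HSPH1 with Saposhnikoviae Radix (-0.139), all at the high dose against vehicle, and HSPH1 with Guibi-tang at the low dose (-0.151). HSF1 with Polygalae Radix at the high dose against vehicle ran from -0.018 without replicate 2 of that dose to 0.336 without its replicate 3. Groups of 2 libraries limit the precision of both inhibitory doses.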
